A study of Rattus norvegicus with 8 samples.

Results

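The proteasome genes described here were the rows of the authors' comparison table whose gene name begins with Psma, Psmb, Psmc, Psmd, Psme, Psmf or Psmg followed by a number. This rule took 47 of 13543 named rows, each a different gene, and it used the names alone and no measured value. Of these, 46 encode subunits, activators, inhibitors or assembly factors of the proteasome. The other was Psmc3ip, which encodes a cofactor of meiotic recombination, and it was kept because the rule takes it. All 47 passed the count filter.

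The proteasome is the large protease that degrades proteins tagged with ubiquitin. Its barrel, the 20S core, is built of outer rings of alpha subunits, which gate the entrance, and inner rings of beta subunits, of which Psmb6, Psmb7 and Psmb5 carry the catalytic sites. The 19S cap sits on the barrel to form the 26S proteasome: its base holds the ATPases that unfold a substrate, and its lid holds the enzyme that removes ubiquitin. Cells exposed to interferon replace the catalytic subunits by Psmb9, Psmb10 and Psmb8 to make the immunoproteasome, other caps (Psme1 to Psme4) can take the place of the 19S cap, and dedicated chaperones put the rings and the base together. In many cell types the transcription factor Nfe2l1 raises the subunit genes together when the proteasome is impaired.

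The RNA came from primary nucleus pulposus (NP) cells, the cells of the gel-like centre of the intervertebral disc, taken from 4 adult Sprague Dawley rats. Both groups were transduced with a lentivirus and selected with puromycin. The Sirt6-KD group (4 libraries, S5 to S8) received an equal mixture of 3 ShSirt6 clones directed against the deacetylase Sirt6, and the Sirt6-Ctrl group (4 libraries, S1 to S4) received ShCtrl. The groups therefore share the viral transduction and differ in the ShRNA, and a single control ShRNA stands against the mixture. Whether the 4 libraries of a group came from separate rats is not given for each library, so the p-values measure the spread between these libraries.

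Total counts were 31994838 to 40124813 in Sirt6-Ctrl and 32382957 to 36600792 in Sirt6-KD. Sirt6 measured 56.4, 54.3, 52.5 and 47.6 CPM in S1 to S4 and 21.8, 20.97, 19.2 and 20.6 CPM in S5 to S8, a log2 fold change of -1.35 ± 0.13 (SE, adjusted p = 0.000713), where SE is the standard error and the p is that of edgeR's quasi-likelihood test. Spike-ins, the ERCC set of synthetic RNAs, set S1 and S2 apart, though how much was added and at which step is not given in the sources used here. Their share of the counts was 6.27% for S1 and 9.80% for S2, beside 3.08% for S3 and 2.97% for S4, while the Sirt6-KD libraries had 2.15% to 2.47% (p = 0.0286 by an exact permutation test, two-sided, which is the lowest that 4 libraries a group can give). The main counts, and the medians of most classes and lists, are therefore also given without S1 and S2. Of the genes that mark NP cells, Krt8 went from 6.56 ± 3.07 to 2.63 ± 0.473 CPM (SD, n = 4 per group, adjusted p = 0.0441) and was the 1 called of 7 tested, lower in Sirt6-KD. The other values ran both ways, 4 of the 7 log2 fold changes being negative and 3 positive, around a median of -0.29, among them Cd24 (-0.98, adjusted p = 0.0537), Car12 (1.53, adjusted p = 0.0776), Cdh2 (0.53) and Sox9 (0.48). Marker counts are to be read against all 13250 genes tested. Of these, 10.7% were called lower and 8.02% higher (adjusted p below 0.05 in edgeR, change above 1.5-fold), and 50.9% had a negative value. Acan measured 4.54 to 55.7 CPM in Sirt6-Ctrl and 9.80 to 18.7 CPM in Sirt6-KD, and Krt18, Krt19, Tbxt, Col2a1 and Shh were not analysed here. The 7 NP markers of 12 that had a row summed to 169.5 to 278 CPM in Sirt6-Ctrl and 241 to 287 CPM in Sirt6-KD. The 4 markers of fibroblasts and the annulus summed to 11606 to 26636 CPM and 8565 to 18147 CPM, nearly all of it Col1a1. All 4 of these had a negative log2 fold change, with a median of -0.70, and Scx (-1.20, adjusted p = 0.0490) was called lower. Their median was -0.998 without S1 and S2, where Mkx was the 1 called lower, and of the NP markers 0 were called there. Of all genes 5.00% were called lower and 5.71% higher without S1 and S2. The 4 immune markers of 8 that had a row summed to 13.1 to 31.95 CPM and 15.5 to 24.9 CPM, and Tek, the 1 endothelial marker of 4, was at or under 0.602 CPM in every library. The summed ranges of the groups overlapped in each list, and the part of these cell types in the results was not tested. In such bulk libraries fewer cells of a type and less RNA per cell cannot be told apart.

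With libraries scaled by TMM, the proteasome genes were lower in the knockdown than in the control libraries. When libraries were scaled by their spike-ins instead, 7 of the 47 members had a negative value, and the median of the members turned from -0.85 to 0.25, while the median of all genes turned from -0.02 to 0.94. Relative to the median of all genes the members lay at -0.83 under TMM and at -0.70 under the spike-ins. With either scaling all 31 constitutive subunits of the 26S proteasome lay below the median gene. Scaling applies the same factor to all genes of a library, so this relative position is not a separate check of the fall. Under the spike-ins 6 of the 31 had a negative value. Calls required both an adjusted p under 0.05 in edgeR (adjustment over every row tested) and a change of more than 1.5-fold. By this rule 32 of the 47 members were called lower and 0 were called higher in Sirt6-KD, beside 10.7% called lower and 8.02% called higher of the 13250 genes tested. At any fold change 37 members were lower at an adjusted p below 0.05, beside 12.8% of all genes, and 0 were higher, beside 9.11%. In 35 members every Sirt6-KD library lay below every Sirt6-Ctrl library, beside 15.6% of all genes, and in 0 members every one lay above, beside 14.8%. Of the 47 log2 fold changes, 41 were negative, beside 50.9% over all genes. Their median was -0.85, a level of 55.6% of that in Sirt6-Ctrl. At an unadjusted p below 0.05 there were 38 members lower and 0 higher, and DESeq2 and limma-voom also called 0 higher. With spike-in scaling edgeR called 0 members in either direction (0 lower and 2 higher at an unadjusted p below 0.05) and, of all genes, 4 lower and 20 higher.

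Without S1 and S2 the test called 20 members lower and 1 higher, which was Psmd10, and the median of the members was -0.56, beside 5.00% called lower and 5.71% called higher of 14177 genes. All 31 constitutive subunits kept a negative log2 fold change there, between -1.41 and -0.29, 27 of them at an adjusted p below 0.05 and 17 with a fold change above 1.5 as well. Leaving out 1 library at a time gave 27 to 36 members called lower, and 1 called higher only without S2, again Psmd10.

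**Figure D1:**
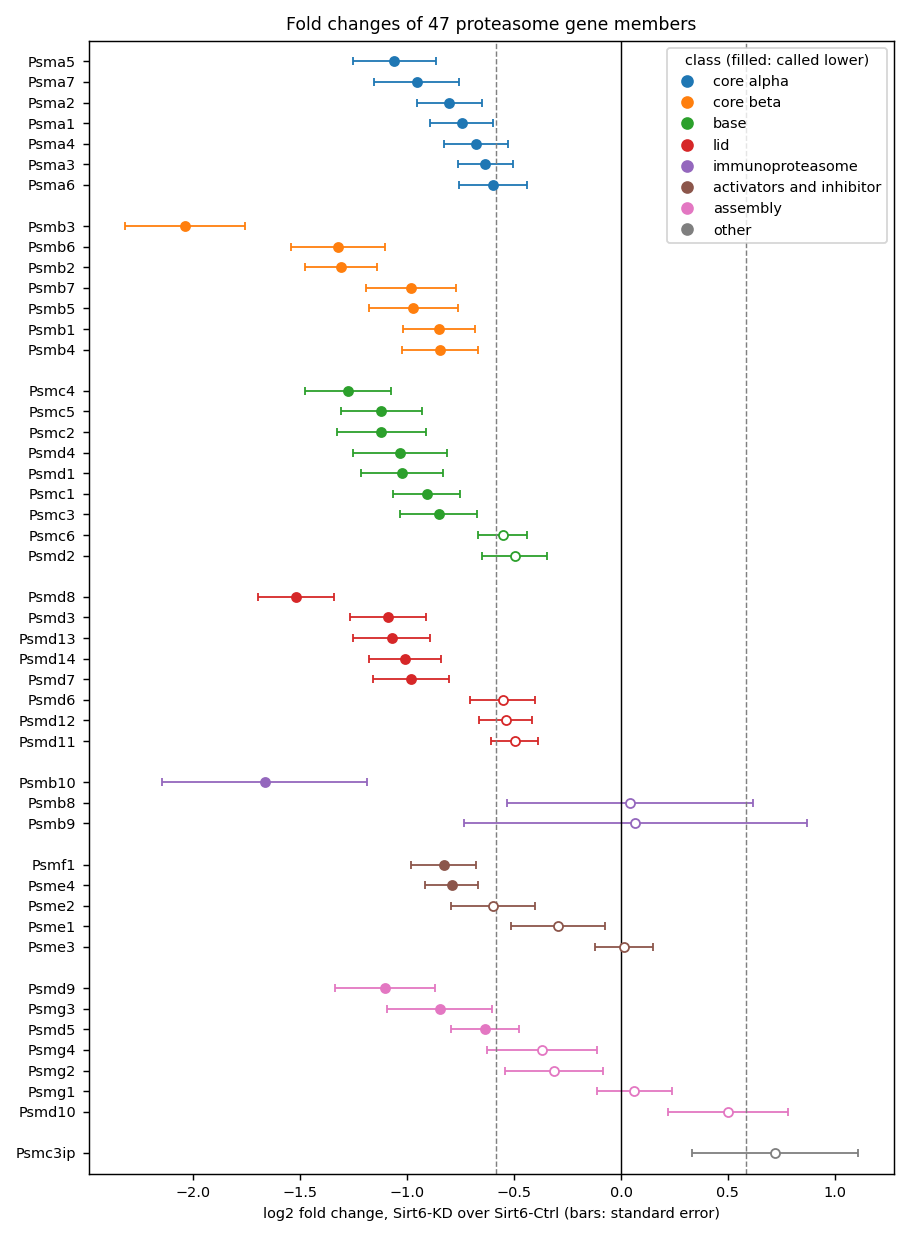
Log2 fold change of each of the 47 members in Sirt6-KD over Sirt6-Ctrl under TMM scaling, grouped by class, with bars for the standard error and dashed lines at a fold change of 1.5. Filled points, 32 in all, were called lower. The constitutive subunits lie between -2.04 and -0.50, and Psmd10 and Psmc3ip lie above 0. With spike-in scaling the median of the members turned to 0.25.

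The fall was shared by the constitutive subunits. All 14 genes of the 20S core were called lower, with a median of -0.90. Of the 17 genes of the 19S cap 12 were called lower, with a median of -1.01, and the other 5 were lower at an adjusted p below 0.05 with a fold change under 1.5. The class medians without S1 and S2 were -0.57 for the alpha subunits, -0.55 for the beta subunits, -0.67 for the base and -0.70 for the lid. Of the 16 members outside the constitutive 26S proteasome 6 were called lower, with a median of -0.34. The 31 subunits also moved together among the controls: S2 had the highest level of the Sirt6-Ctrl libraries in 25 of them and S1 in 6, and S3 had the lowest in 30 and S4 in 1. Their median level, relative to the mean of the log2 control levels, was 112.8%, 125.5%, 75.7% and 92.2% in S1 to S4. In the Sirt6-KD libraries it was 49.5% to 57.1%. The libraries with the most spike-in counts were thus those with the highest proteasome levels, and their part in the results was not tested beyond leaving them out.

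**Figure D2:**
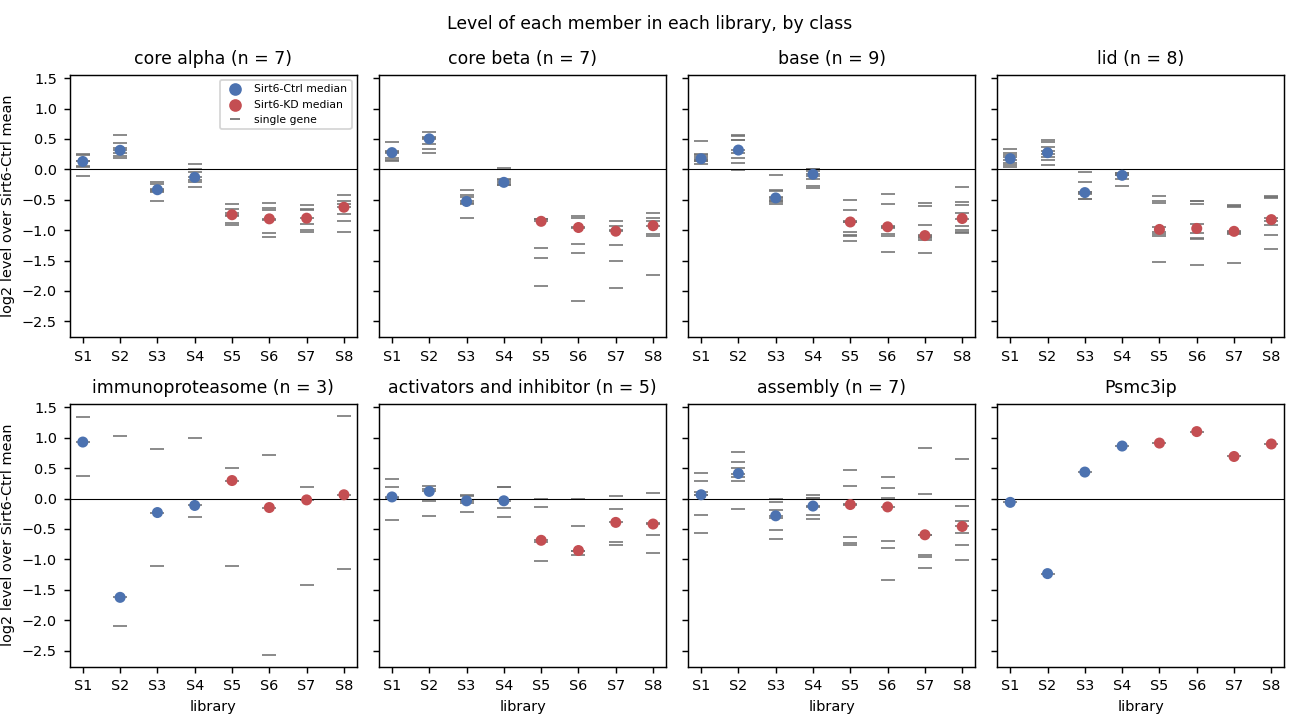
Level of each member (dashes) and the class median (dots) in each library, as log2 TMM-normalized CPM relative to the mean of the 4 Sirt6-Ctrl libraries. In the 4 constitutive classes (top row) every Sirt6-KD median lies below every Sirt6-Ctrl median, and in the immunoproteasome class S2 has the lowest median of the 8 libraries.

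The members together took 0.754%, 0.767%, 0.546% and 0.632% of the counts on genes in S1 to S4. They took 0.379%, 0.374%, 0.371% and 0.404% in S5 to S8. The groups did not overlap in this share, which is relative to the counts on all genes of a library and does not use the spike-ins.

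**Figure D3:**
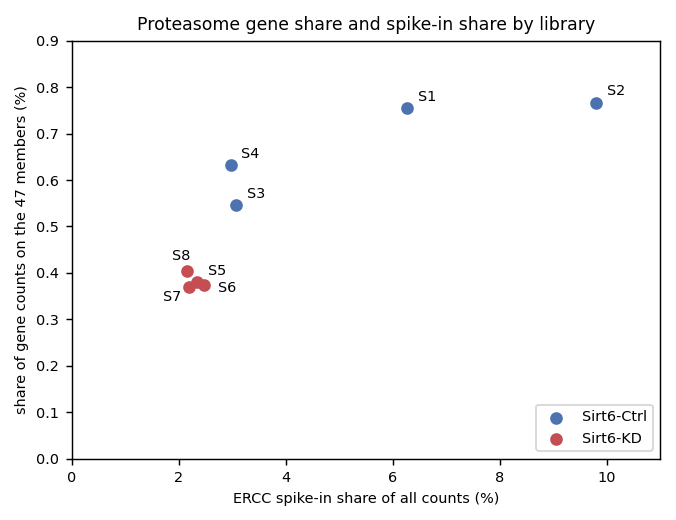
Share of the counts on genes that fell on the 47 members, against the share of all counts that fell on spike-ins, for each of the 8 libraries. S3 and S4, with 3.08% and 2.97% of spike-ins, lie above all Sirt6-KD libraries in both shares. The Sirt6-KD libraries have 2.15% to 2.47% of spike-ins and 0.371% to 0.404% of the counts on genes in the members.

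Promoter sequences are shown for the 4 constitutive subunits with the most negative log2 fold changes (Psmb3, Psmd8, Psmb6 and Psmb2) and for 2 members without a negative value, Psmb8 and Psmd10. They were picked after their values were seen, so that the regulatory stretch of genes called lower can be set beside that of genes not called lower. Neither Psmb8 (0.04 ± 0.57, SE) nor Psmd10 (0.50 ± 0.28, SE) was shown to be unchanged. Each sequence is the 250 bases before the annotated start in the RefSeq table of the GRCr8 assembly, which is a later assembly than the Rnor_6.0 of the count files, and is written 5′ to 3′ on the strand of the gene. Capitals mark matches, on either strand, to TGACNNNGC or TGAGNNNGC, the core of the antioxidant response element to which Nfe2l1 and Nfe2l2 bind, or to CCAAT, the box bound by NF-Y. The stretches are chr10:83193537-83193786, plus strand for Psmb3, chr1:93608690-93608939, minus strand for Psmd8, chr10:55737638-55737887, plus strand for Psmb6, chr5:144254808-144255057, plus strand for Psmb2, chr20:4657032-4657281, minus strand for Psmb8 and chrX:109453606-109453855, minus strand for Psmd10.
Psmb3: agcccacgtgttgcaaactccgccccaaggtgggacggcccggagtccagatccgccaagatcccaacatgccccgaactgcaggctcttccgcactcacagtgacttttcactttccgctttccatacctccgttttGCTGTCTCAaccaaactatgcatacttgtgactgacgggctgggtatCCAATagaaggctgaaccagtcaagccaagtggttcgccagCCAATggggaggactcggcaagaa
Psmd8: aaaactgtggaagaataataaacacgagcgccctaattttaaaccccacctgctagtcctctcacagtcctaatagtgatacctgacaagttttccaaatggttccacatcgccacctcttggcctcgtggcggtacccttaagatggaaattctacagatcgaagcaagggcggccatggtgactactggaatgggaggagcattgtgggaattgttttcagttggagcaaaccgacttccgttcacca
Psmb6: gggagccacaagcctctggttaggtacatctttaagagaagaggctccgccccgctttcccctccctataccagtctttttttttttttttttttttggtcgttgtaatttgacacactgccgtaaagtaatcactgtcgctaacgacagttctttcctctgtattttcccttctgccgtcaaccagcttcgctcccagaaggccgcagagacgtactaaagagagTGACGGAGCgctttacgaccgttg
Psmb2: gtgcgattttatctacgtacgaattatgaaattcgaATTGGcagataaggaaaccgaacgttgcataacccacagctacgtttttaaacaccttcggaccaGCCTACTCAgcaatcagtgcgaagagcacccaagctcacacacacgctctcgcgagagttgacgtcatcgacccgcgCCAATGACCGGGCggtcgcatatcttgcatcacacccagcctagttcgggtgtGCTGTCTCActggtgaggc
Psmb8: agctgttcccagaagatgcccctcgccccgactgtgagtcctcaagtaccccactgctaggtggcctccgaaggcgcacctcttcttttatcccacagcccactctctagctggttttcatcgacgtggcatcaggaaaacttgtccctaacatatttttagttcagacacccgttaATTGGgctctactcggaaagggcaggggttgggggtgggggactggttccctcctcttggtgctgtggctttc
Psmd10: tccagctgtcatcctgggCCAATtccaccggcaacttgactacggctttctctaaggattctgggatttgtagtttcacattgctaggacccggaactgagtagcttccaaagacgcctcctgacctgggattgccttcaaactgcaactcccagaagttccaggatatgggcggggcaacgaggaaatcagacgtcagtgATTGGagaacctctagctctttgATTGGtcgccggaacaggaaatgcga

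In Psmb2 a CCAAT box and a TGACNNNGC match overlap. The stretch of Psmd8, which had the smallest p of all members, held no match to any of the 3 motifs. Counted over 250 bases before to 50 bases after the start, TGACNNNGC occurred in 8 of the 43 members with an entry, or 18.6%, beside 12.1% of all 33469 promoters of the table. TGAGNNNGC occurred in 10 members, or 23.3%, beside 17.2% of all promoters. Either form occurred in 17 members, or 39.5%, beside 27.1% of all promoters, and these were 12 of the 27 constitutive subunits with an entry, or 44.4%, and 5 of the 16 other members, or 31.2%. CCAAT occurred in 22 members, or 51.2%, beside 37.5% of all promoters. These were 14 of the constitutive subunits, or 51.9%, and 8 of the other members, or 50%. Psma7, Psmd12, Psmd14 and Psmd6 had no entry. A match describes the letters of the promoter and was not tested as a binding site.

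The alpha subunits form the outer rings of the core. All 7 were called lower, with a median log2 fold change of -0.75 and a range from -1.06 to -0.60, and in each of them every Sirt6-KD library lay below every Sirt6-Ctrl library. Psma5 (ENSRNOG00000019868) had the most negative value of the class. It measured 181, 204, 106 and 133 CPM in S1 to S4 and 79.9, 69.9, 75.6 and 73.7 CPM in S5 to S8, a log2 fold change of -1.06 ± 0.19 (SE, adjusted p = 0.00655). Psma7 measured 216, 312, 167 and 172 CPM in S1 to S4 and 125, 102, 103 and 117 CPM in S5 to S8, a log2 fold change of -0.96 ± 0.20 (SE, adjusted p = 0.0105). In both genes S2 was the highest of the 8 libraries and S3 the lowest control.

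Psma2 measured 133, 154, 101 and 128 CPM in S1 to S4 and 69.3, 71.7, 68.7 and 86.2 CPM in S5 to S8, a log2 fold change of -0.80 ± 0.15 (SE, adjusted p = 0.00728). Psma1 measured 130.1, 146, 99.6 and 101 CPM in S1 to S4 and 71.9, 66.96, 74.98 and 70.9 CPM in S5 to S8, a log2 fold change of -0.75 ± 0.15 (SE, adjusted p = 0.00872). In these genes the lowest Sirt6-Ctrl library, S3, stood above the highest Sirt6-KD library. Psma4 measured 156, 151, 103 and 129.7 CPM in S1 to S4 and 84.5, 83.9, 76.3 and 92.8 CPM in S5 to S8, and Psma3, whose tail helps to close the gate of the barrel, measured 124, 155, 116 and 143 CPM in S1 to S4 and 78.9, 91.5, 89.5 and 86.9 CPM in S5 to S8. Their log2 fold changes were -0.68 ± 0.15 (SE, adjusted p = 0.0130) for Psma4 and -0.64 ± 0.13 (SE, adjusted p = 0.00950) for Psma3. Psma6 measured 214, 250.5, 153 and 179 CPM in S1 to S4 and 132, 125, 122 and 146 CPM in S5 to S8, the smallest change of the class at -0.60 ± 0.16 (SE, adjusted p = 0.0252). S3 lay closest to the Sirt6-KD libraries in Psma6. The calls of 3 alpha subunits were lost when certain single libraries were left out. Psma6 lost its call without S1, S5, S6 or S7 (adjusted p 0.0705, 0.0713, 0.0827 and 0.0816, edgeR) and without S2 (log2 fold change -0.45). Psma4 lost it without S1 (log2 fold change -0.57) or S7 (adjusted p = 0.0505), and Psma3 without S2 (log2 fold change -0.55). Without both S1 and S2 the calls of Psma5, Psma7 and Psma2 were the ones that held.

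The beta subunits form the inner rings. All 7 constitutive genes were called lower, with a median log2 fold change of -0.98 and a range from -2.04 to -0.85, and in each of them the groups did not overlap. Psmb3 (ENSRNOG00000052730), a structural subunit, fell the most of all members. It measured 214, 240.1, 89.5 and 130.5 CPM in S1 to S4 and 41.6, 34.8, 40.6 and 46.96 CPM in S5 to S8, a log2 fold change of -2.04 ± 0.28 (SE, adjusted p = 0.00266) and a level of 24.3% of that in Sirt6-Ctrl. S3 and S4 lay well below S1 and S2 in this gene, yet the lowest of the 4 was above the highest Sirt6-KD library. Its log2 fold change was -1.41 without S1 and S2, and between -2.25 and -1.80 with 1 library left out at a time. RefSeq lists like-named copies, mostly pseudogenes, of 19 of the 47 members and 10 of Psmb3, more than of any other, and reads of such copies could have been counted on either, so these levels are uncertain to that extent. Psmb2 (ENSRNOG00000011463), another structural subunit, measured 87.7, 96.3, 59.8 and 81.8 CPM in S1 to S4 and 29.3, 30.8, 33.7 and 37.5 CPM in S5 to S8, a log2 fold change of -1.31 ± 0.17 (SE, adjusted p = 0.00217). All 4 Sirt6-KD libraries were under the lowest control by more than the spread among them, and without S1 and S2 the value was -1.10. Psmb1 measured 253, 303, 179.9 and 197 CPM in S1 to S4 and 129, 130.4, 119 and 138 CPM in S5 to S8, a log2 fold change of -0.85 ± 0.17 (SE, adjusted p = 0.00890). Psmb4 measured 343, 347, 202 and 244 CPM in S1 to S4 and 157, 162, 154 and 158 CPM in S5 to S8, a log2 fold change of -0.85 ± 0.18 (SE, adjusted p = 0.0108). The values of these structural subunits were closer to 0 than those of Psmb3 and Psmb2, a difference that was not tested. Without S1 and S2 their log2 fold changes of -0.53 for Psmb1 and -0.49 for Psmb4 were under the fold of 1.5 but stayed at an adjusted p below 0.05.

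The catalytic subunits of the constitutive core fell as well. Psmb6 (ENSRNOG00000019551), which cuts after acidic residues, measured 171, 199, 97.5 and 118 CPM in S1 to S4 and 57.1, 59.9, 49.6 and 67.00 CPM in S5 to S8, a log2 fold change of -1.33 ± 0.22 (SE, adjusted p = 0.00469). Psmb7, which cuts after basic residues, measured 222, 262, 125 and 155 CPM in S1 to S4 and 104, 94.5, 92.00 and 96.5 CPM in S5 to S8, a log2 fold change of -0.98 ± 0.21 (SE, adjusted p = 0.0115). Psmb5, which cuts after hydrophobic residues and is the main target of the proteasome inhibitor bortezomib, measured 145, 184, 85.9 and 114 CPM in S1 to S4 and 70.3, 65.7, 62.8 and 70.9 CPM in S5 to S8, a log2 fold change of -0.97 ± 0.21 (SE, adjusted p = 0.0114). In all 3 genes S3 was the lowest control and lay above every Sirt6-KD library. Without S1 and S2 the log2 fold change was -0.87 for Psmb6, which kept its call, -0.52 for Psmb7 and -0.55 for Psmb5, which did not.

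Of the inducible catalytic subunits, which make up the immunoproteasome, Psmb8 and Psmb9 did not pass the test and Psmb10 did. Psmb8, which replaces Psmb5, had 139, 22, 125 and 80 reads in S1 to S4 and 89, 115, 92 and 74 in S5 to S8. This corresponds to 3.99, 0.680, 3.68 and 1.94 CPM in S1 to S4 and 2.58, 3.43, 2.40 and 2.19 CPM in S5 to S8, and the log2 fold change was 0.04 ± 0.57 (SE, adjusted p = 0.969). S2 had the lowest level of Psmb8 and S1 the highest, so the Sirt6-KD libraries lay inside the range of the controls. Psmb9, which replaces Psmb6, had 70, 6, 23 and 65 reads in S1 to S4 and 39, 24, 30 and 69 in S5 to S8. This corresponds to 2.01, 0.186, 0.677 and 1.58 CPM in S1 to S4 and 1.13, 0.717, 0.782 and 2.04 CPM in S5 to S8, and the log2 fold change was 0.07 ± 0.80 (SE, adjusted p = 0.964). The standard errors of 0.57 for Psmb8 and 0.80 for Psmb9 leave room for a change as large as the median of the constitutive subunits, -0.97, in either gene.

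Psmb10 (ENSRNOG00000019494), which replaces Psmb7, was called lower. It had 520, 762, 180 and 386 reads in S1 to S4 and 184, 65, 165 and 174 in S5 to S8. This corresponds to 14.9, 23.6, 5.30 and 9.36 CPM in S1 to S4 and 5.33, 1.94, 4.30 and 5.15 CPM in S5 to S8, and the log2 fold change was -1.67 ± 0.48 (SE, adjusted p = 0.0323). The groups overlapped, since S5 was slightly above S3. The call was lost without any 1 of S1, S2, S5, S6, S7 or S8 (adjusted p 0.0643 to 0.0874 in edgeR's quasi-likelihood test), and the log2 fold change without S1 and S2 was -0.80 (adjusted p = 0.235).

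Whether an inducible subunit changed relative to the constitutive subunit of the same site was tested within each library, on the ratio of their raw counts, which depends on no scaling between libraries, by a two-sided test. For each 1000 reads on Psmb5 there were 27.5, 3.70, 42.8 and 17.1 reads on Psmb8 in S1 to S4 and 36.7, 52.3, 38.2 and 30.9 in S5 to S8. The mean log2 ratio was higher in Sirt6-KD by 1.23 (exact permutation test, p = 0.143, and 0.143 adjusted over the 3 ratios). For each 1000 reads on Psmb6 there were 11.8, 0.932, 6.95 and 13.4 reads on Psmb9 in S1 to S4 and 19.8, 11.96, 15.8 and 30.5 in S5 to S8. The mean log2 ratio was higher by 1.70 (exact permutation test, p = 0.0571, and 0.143 adjusted over the 3 ratios). For each 1000 reads on Psmb7 there were 67.3, 89.9, 42.3 and 60.2 reads on Psmb10 in S1 to S4 and 51.1, 20.5, 46.8 and 53.4 in S5 to S8. The mean log2 ratio was lower in Sirt6-KD, by -0.64 (exact permutation test, p = 0.143, and 0.143 adjusted over the 3 ratios). None of the 3 ratios passed, and in each of them the groups overlapped. S2 was far below all other libraries in the ratios of Psmb8 and Psmb9. Without S2 the difference was 0.512 for the Psmb8 to Psmb5 ratio and 0.834 for the Psmb9 to Psmb6 ratio (exact permutation test, p = 0.257 and 0.114, not adjusted). Leaving out both S1 and S2 gave differences of 0.520 for the Psmb8 to Psmb5 ratio, 0.930 for the Psmb9 to Psmb6 ratio and -0.328 for the Psmb10 to Psmb7 ratio (exact permutation test, p = 0.467, 0.2 and 0.667, with 2 libraries against 4, which cannot reach 0.05). Leaving out S3 brought the difference in the Psmb8 to Psmb5 ratio to 1.69 and leaving out S4 brought that in the Psmb9 to Psmb6 ratio to 2.12, each at the smallest p that 3 libraries against 4 allow (exact permutation test, p = 0.0286, not adjusted).

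**Figure D4:**
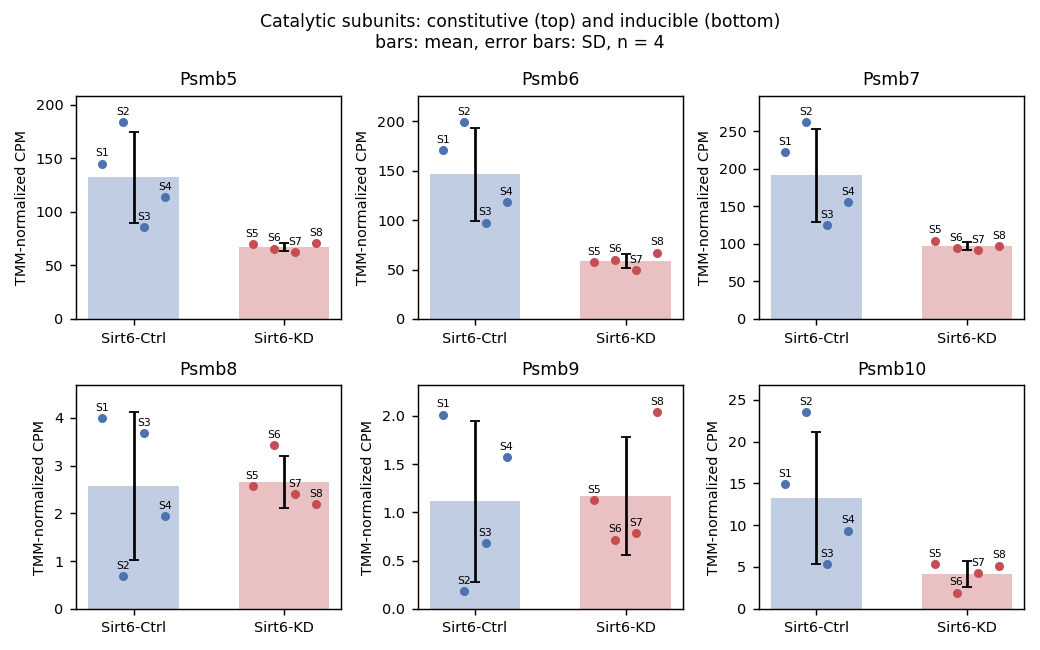
TMM-normalized CPM of the constitutive catalytic subunits (top) and of the inducible subunits of the immunoproteasome (bottom) in each library, with bars for the mean and error bars for the SD over 4 libraries, each panel on its own scale from 0. The groups do not overlap in Psmb5, Psmb6 and Psmb7, and they overlap in Psmb8, Psmb9 and Psmb10. With spike-in scaling the log2 fold changes of the constitutive subunits were -0.16 for Psmb6, 0.19 for Psmb5 and 0.19 for Psmb7.

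The base of the 19S cap holds the ring of 6 ATPases and the subunits Psmd1, Psmd2 and Psmd4. Of its 9 genes 7 were called lower and all 9 were lower at an adjusted p below 0.05, with a median log2 fold change of -1.02 and a range from -1.28 to -0.50. Among the ATPases Psmc4 (ENSRNOG00000018994) fell the most. It measured 206, 257, 128 and 169.8 CPM in S1 to S4 and 81.6, 72.1, 70.6 and 90.02 CPM in S5 to S8, a log2 fold change of -1.28 ± 0.20 (SE, adjusted p = 0.00418). Psmc5 measured 207, 162, 102 and 152 CPM in S1 to S4 and 70.4, 70.4, 69.97 and 75.3 CPM in S5 to S8, a log2 fold change of -1.12 ± 0.19 (SE, adjusted p = 0.00516). Its Sirt6-KD levels lay within a narrow band. Psmc2 measured 299, 384, 189 and 209 CPM in S1 to S4 and 123, 125, 123 and 126 CPM in S5 to S8, a log2 fold change of -1.12 ± 0.21 (SE, adjusted p = 0.00713). Psmc1 measured 382, 369, 255 and 306 CPM in S1 to S4 and 181, 169, 152 and 196 CPM in S5 to S8, a log2 fold change of -0.91 ± 0.16 (SE, adjusted p = 0.00537). In these 4 ATPases the controls spread far more than the Sirt6-KD libraries, and the groups stayed apart. Psmc3 measured 345, 381, 216 and 307 CPM in S1 to S4 and 168, 159, 161 and 204 CPM in S5 to S8, a log2 fold change of -0.85 ± 0.18 (SE, adjusted p = 0.0109). The last ATPase, Psmc6, had a log2 fold change of -0.55 ± 0.11 (SE, adjusted p = 0.0102), just under the fold of 1.5 (0.58 on the log2 scale), and it passed that fold without S6 (-0.61).

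Psmd4, the receptor that holds ubiquitin chains on the cap, measured 245, 300.4, 141 and 169 CPM in S1 to S4 and 112, 106, 91.7 and 107 CPM in S5 to S8, a log2 fold change of -1.03 ± 0.22 (SE, adjusted p = 0.0110). Psmd1, a scaffold of the base, measured 235, 301, 154 and 192 CPM in S1 to S4 and 105, 109, 97.8 and 122 CPM in S5 to S8, a log2 fold change of -1.02 ± 0.19 (SE, adjusted p = 0.00754). Both were below every control in all Sirt6-KD libraries. Psmd2, the other scaffold, to which shuttle factors bind, had the smallest change of the base, with a log2 fold change of -0.50 ± 0.15 (SE, adjusted p = 0.0402). It was the only constitutive subunit whose groups overlapped, S8 at 296 CPM being above S3 at 284 CPM, and without S3 it was called lower (-0.60). It was at -0.30 without S1 and S2 (adjusted p = 0.173, edgeR). Without S1 and S2 the base kept 6 of its 7 calls, Psmd4 being the one lost (-0.56).

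The lid holds the deubiquitinase Psmd14 and its neighbours. Of its 8 genes 5 were called lower, all 8 were lower at an adjusted p below 0.05, and in all 8 the groups did not overlap, with a median log2 fold change of -0.997 and a range from -1.52 to -0.50. Psmd8 (ENSRNOG00000037580), a lid subunit that joins late in its assembly, had the smallest p of the 47 members. It measured 313, 285, 176 and 237 CPM in S1 to S4 and 85.5, 83.00, 84.5 and 99.05 CPM in S5 to S8, a log2 fold change of -1.52 ± 0.18 (SE, adjusted p = 0.00143) and a level of 34.9% of that in Sirt6-Ctrl. Even S3, the lowest control, was well above the highest Sirt6-KD library, and the value was -1.22 without S1 and S2. Psmd14 (ENSRNOG00000061129), the enzyme that takes ubiquitin off the substrate, measured 119, 128, 78.3 and 96.7 CPM in S1 to S4 and 53.5, 46.7, 49.2 and 59.5 CPM in S5 to S8, a log2 fold change of -1.01 ± 0.17 (SE, adjusted p = 0.00498). Psmd7, its catalytically inactive partner, measured 193, 256, 141 and 165 CPM in S1 to S4 and 90.6, 98.6, 91.2 and 102 CPM in S5 to S8, a log2 fold change of -0.98 ± 0.18 (SE, adjusted p = 0.00634). The gap between the values of this pair was smaller than either standard error.

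Psmd3 measured 344, 368, 219 and 235 CPM in S1 to S4 and 136, 138, 138 and 135 CPM in S5 to S8, a log2 fold change of -1.09 ± 0.18 (SE, adjusted p = 0.00435). Psmd13 measured 233, 295, 156 and 208 CPM in S1 to S4 and 102, 99.8, 107 and 116 CPM in S5 to S8, a log2 fold change of -1.07 ± 0.18 (SE, adjusted p = 0.00510). These structural subunits of the lid kept their calls without S1 and S2, as did Psmd8, Psmd14 and Psmd7. Psmd6, Psmd12 and Psmd11, also structural, passed the adjusted p but not the fold. Their log2 fold changes were -0.55 ± 0.15 (SE, adjusted p = 0.0270) for Psmd6, -0.54 ± 0.12 (SE, adjusted p = 0.0139) for Psmd12 and -0.50 ± 0.11 (SE, adjusted p = 0.0119) for Psmd11. Without S3 Psmd6 (-0.67) and Psmd12 (-0.61) were called lower, and without S4 Psmd6 (-0.60) was. Psmd6 was at -0.29 without S1 and S2 (adjusted p = 0.134, edgeR).

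Of the 5 genes of the alternative caps and the inhibitor 2 were called lower, with a median log2 fold change of -0.60 and a range from -0.83 to 0.01. The median was -0.56 without S1 and S2, and 2 were called there too. Psme4 (ENSRNOG00000060340), which encodes the activator PA200, measured 159, 151, 163 and 152 CPM in S1 to S4 and 76.3, 86.4, 94.8 and 104 CPM in S5 to S8, a log2 fold change of -0.79 ± 0.12 (SE, adjusted p = 0.00413). Its control libraries lay within a narrow band, and without S1 and S2 the log2 fold change was again -0.79 and the call held. Psmf1, which encodes the inhibitor PI31, measured 64.5, 62.6, 55.02 and 45.8 CPM in S1 to S4 and 35.1, 29.6, 33.1 and 30.4 CPM in S5 to S8, a log2 fold change of -0.83 ± 0.15 (SE, adjusted p = 0.00653), and it too kept its call. Psme1 and Psme2 encode the partners that form the interferon-inducible ring PA28. Psme2 measured 42.6, 28.1, 29.3 and 39.1 CPM in S1 to S4 and 20.9, 18.9, 26.1 and 25.98 CPM in S5 to S8, a log2 fold change of -0.60 ± 0.20 (SE, adjusted p = 0.0509). Its groups did not overlap but it missed the threshold, which it passed without S2 (adjusted p = 0.0306) or S3 (adjusted p = 0.0303), and without S1 and S2 it was at -0.56 (adjusted p = 0.0796, edgeR). Psme1 measured 11.1, 12.7, 10.5 and 9.87 CPM in S1 to S4 and 10.01, 8.03, 9.72 and 8.23 CPM in S5 to S8, a log2 fold change of -0.30 ± 0.22 (SE, adjusted p = 0.366). Psme3, which encodes the nuclear activator PA28 gamma, measured 64.4, 88.7, 84.3 and 92.98 CPM in S1 to S4 and 81.3, 81.5, 84.3 and 86.7 CPM in S5 to S8, a log2 fold change of 0.01 ± 0.14 (SE, adjusted p = 0.952). The Sirt6-KD levels of Psme3 lay inside the range of the controls, and its standard error was small beside the median of the constitutive subunits, -0.97.

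Of the 7 assembly factors 3 were called lower, with a median log2 fold change of -0.37 and a range from -1.10 to 0.50. Their median was -0.16 without S1 and S2. Psmd9, a chaperone of the base, measured 74.2, 86.2, 42.7 and 50.5 CPM in S1 to S4 and 35.9, 24.1, 27.7 and 30.1 CPM in S5 to S8, a log2 fold change of -1.10 ± 0.23 (SE, adjusted p = 0.0109). Psmd5, also a chaperone of the base, measured 57.01, 64.5, 43.2 and 48.3 CPM in S1 to S4 and 31.5, 32.5, 34.9 and 38.3 CPM in S5 to S8, a log2 fold change of -0.64 ± 0.16 (SE, adjusted p = 0.0201). In both the groups did not overlap. Psmg3, a chaperone of the alpha ring, measured 32.96, 47.8, 19.8 and 31.9 CPM in S1 to S4 and 20.4, 17.95, 16.6 and 18.6 CPM in S5 to S8, a log2 fold change of -0.85 ± 0.24 (SE, adjusted p = 0.0323). In Psmg3 S5 was above S3. Psmd9 kept its call without S1 and S2 (-0.65), and Psmd5 (-0.41) and Psmg3 (-0.48) did not. Psmd5 lost its call without S1, S5, S6 or S7 (adjusted p 0.0585 to 0.0695) and without S2 (-0.52), and Psmg3 lost it without any 1 of S1, S2, S5, S6, S7 or S8 (adjusted p 0.0547 to 0.0953, edgeR).

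Psmg1 and Psmg2, the chaperones that pair to start the alpha ring, had log2 fold changes of 0.06 ± 0.18 (SE, adjusted p = 0.836) and -0.31 ± 0.23 (SE, adjusted p = 0.357). Psmg4, the partner of Psmg3, had a log2 fold change of -0.37 ± 0.26 (SE, adjusted p = 0.331). None of these passed the test, and the groups overlapped in each. Psmd10, which encodes the base chaperone gankyrin, was the only assembly factor besides Psmg1 with a positive value. It measured 9.37, 23.6, 12.2 and 14.01 CPM in S1 to S4 and 19.3, 17.7, 24.7 and 21.9 CPM in S5 to S8, a log2 fold change of 0.50 ± 0.28 (SE, adjusted p = 0.224). S2 had the highest level among the controls, above 3 of the Sirt6-KD libraries, and without S2 the gene was called higher (0.83, adjusted p = 0.022, edgeR). Psmc3ip measured 5.92, 2.63, 8.36 and 11.2 CPM in S1 to S4 and 11.6, 13.3, 9.98 and 11.5 CPM in S5 to S8, a log2 fold change of 0.72 ± 0.39 (SE, adjusted p = 0.208), and the groups overlapped.

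Genes that work with the proteasome but lie outside the name rule were taken from lists of the pathway, and their counts are to be read against the 10.7% called lower and 8.02% called higher of all genes tested, or 5.00% and 5.71% without S1 and S2. Among 8 tested partners of the complex 3 were called lower, with a median log2 fold change of -0.53. These were Adrm1 (-1.26), the ubiquitin receptor of the base, Txnl1 (-0.70), a thioredoxin-like protein that binds the lid, and Akirin2 (-0.59), which brings proteasomes into the nucleus. Adrm1 was the 1 partner called without S1 and S2, at -0.91, and the median was then -0.30. Among 11 shuttle and extraction factors 3 were called lower, with a median of -0.20. They were the unfolding ATPase Vcp (-0.86), its cofactor Ufd1 (-0.98) and the membrane factor Faf2 (-0.81), and without S1 and S2 these 3 were called again, with a median of 0.01.

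Among 10 genes of the COP9 signalosome, a complex built like the lid that removes Nedd8 from cullins, Cops8 (-0.70) and Cops9 (-1.16) were called lower, with a median of -0.46 over the list. In the libraries without S1 and S2 edgeR called 0 of them, with a median of -0.16 (at an adjusted p below 0.05 Cops5 at -0.42 and Cops8 at -0.47). Among 13 genes of MHC class I presentation and interferon signalling 4 were called lower and 1 higher. The lower ones were the chaperones Calr (-1.15) and Pdia3 (-1.13), the light chain B2m (-0.66) and the peptide transporter Tap1 (-0.63), and the higher one was the kinase Jak1 (0.73). Of these 5, Calr, Pdia3 and Jak1 kept their calls without S1 and S2. Of the 11 transcription factors and processing enzymes known to act on subunit genes 0 were called by edgeR in either direction, 2 had an unadjusted p below 0.05, and their median was 0.21. Nfe2l1 had a log2 fold change of -0.44 ± 0.14 (SE, adjusted p = 0.0476) and Stat3 one of 0.48 ± 0.12 (SE, adjusted p = 0.0195), the regulators at an adjusted p below 0.05, which are named after their values were seen. Nfe2l1 measured 481, 488, 462 and 553 CPM in S1 to S4 and 339, 335, 342 and 449.8 CPM in S5 to S8. All its Sirt6-KD levels were below the controls, S8 being the highest of them. With S1 and S2 left out edgeR again called 0 regulators, the median was 0.31, the log2 fold change of Nfe2l1 was -0.46 (adjusted p = 0.0784) and that of Stat3 was 0.40 (adjusted p = 0.0551), and Nfe2l2 was at 0.55 (adjusted p = 0.0431). The values of these 5 lists are those under TMM scaling.

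**Figure D5:**
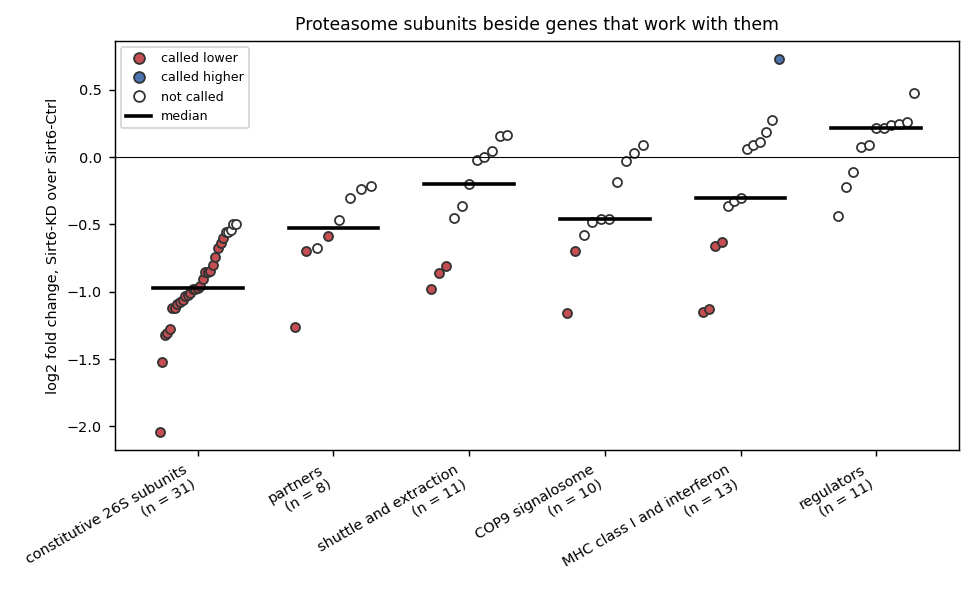
Log2 fold change under TMM scaling of the 31 constitutive 26S subunits and of the genes in the 5 lists of partners, regulators and related genes, with the median of each as a bar. Red points were called lower and the blue point (Jak1) higher. The subunits have a median of -0.97 and the regulators one of 0.21. With spike-in scaling the median of the subunits turned to 0.19.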

How the data were processed

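RNA-seq was performed on 8 libraries of rat NP cells (Sirt6-Ctrl S1 to S4, Sirt6-KD S5 to S8, grouped by the sample labels). The submitters' processing notes name Trimmomatic 0.36, STAR 2.5.2b, featureCounts of Subread 1.5.2, DESeq2 and the Rnor_6.0 build. The authors deposited raw read counts per Ensembl gene and spike-in (32975 rows, 92 of them spike-ins), which are used here. Their comparison table, used for gene names only, also holds deposited size-factor-normalized signal, log2 fold changes and p-values of the authors' own test, none of which were used.

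Rows with low counts were removed with filterByExpr of edgeR 4.0.16 (R 4.3.3), which left 13313 rows, 63 of them spike-ins, kept in the fit and out of gene counts. Libraries were scaled by TMM and compared, unpaired, by edgeR's quasi-likelihood test (two-sided), and p-values were adjusted by Benjamini-Hochberg across the rows. Calls needed an adjusted p under 0.05 together with a change of over 1.5-fold. Levels are TMM-normalized CPM, counts scaled to the library size, and the standard error is the log2 fold change over the root of F. The sums of cell type markers and the level of Tek are CPM of all counts, spike-ins included, without TMM. Ratios within a library were compared by exact permutation tests. The quasi-likelihood test, DESeq2 and limma-voom were checked on simulated data in which both groups had the same spread. The permutation test was checked on a fixed example, and the other alternatives were not checked in this way. The real groups differed in spread, as measured by the chi-squared per gene between libraries of the same group. Every Sirt6-Ctrl pair reached at least 89.9, whereas no Sirt6-KD pair exceeded 74.1. How the tests behave under such unequal spread was not checked, so the simulation does not vouch for the p-values given here. The depth of 31994838 to 40124813 counts puts 3 counts at 0.0748 to 0.0938 CPM without TMM. This floor covers counting error only, because the reads carry no molecular identifiers. Whether the counting used strand is not given in the sources used here, so overlapping genes could share reads.

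The alternatives were other filters, scalings (DESeq2 1.42.0 size factors, upper quartile, library totals, spike-ins), tests (DESeq2, limma-voom with limma 3.58.1, likelihood ratio, glmTreat), a loess correction (span 0.5) for gene span, each library left out in turn, and S1 and S2 left out. The members, classes, lists and alternatives were chosen with earlier results of these data known. Members were named with the value in every library where called, where catalytic and for the activators and the inhibitor, and with fold change and test otherwise. Genes of the other lists were named where called, and 1 of the lists is not reported here. Promoters came from the RefSeq table of GRCr8, matched by symbol for 43 of 47 members. Psma8, Psmb11, Pomp, Ecpas, Paaf1, Ddi1, Tap2 and Nlrc5 were not analysed here.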

Additional observations from a re-analysis of the deposited data

Results flagged for a closer look

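In 102 groups of 4 libraries (the 47 members, the 3 ratios and Sirt6, each in both groups), the gap between an extreme library and its nearest neighbour was divided by the range of the group, on CPM for genes and on the log2 scale for ratios, and compared with Dixon's critical value at 95%, which chance passes in about 1 group of 20 (5.1 of these). A total of 3 groups passed. In Psmd8 S8 (99.0 CPM) stood above the other Sirt6-KD libraries (83.0 to 85.5 CPM), with a ratio of gap to range of 0.845. In Psmc5 S8 (75.3 CPM) stood above the others (69.97 to 70.4 CPM), with a ratio of 0.916. In the Psmb10 to Psmb7 ratio S6 (20.5 reads for each 1000) stood below the others (46.8 to 53.4), with a ratio of 0.862 between the gap and the range of the log2 values. In Psmd8 and Psmc5 S8 still lay below every Sirt6-Ctrl library.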

How the results depend on the processing

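The count of members called lower, 32 in the test reported, was 28 to 33 with the other count filters, scalings by size factors, upper quartile or library totals, other tests except glmTreat, the removal of spike-in rows and the loess correction for gene span. The median stayed negative in all of these. With spike-in scaling 0 members were called lower, 0 had an adjusted p below 0.05 and the median was 0.247, since the median of all genes moved to 0.944. Relative to that median it was -0.697. Without S1 and S2, 20 members were called lower and 1 higher, and the median was -0.560. With glmTreat, whose null hypothesis is a change of up to 1.5-fold, 5 were called lower. Leaving out 1 library gave 27 to 36 called lower, 0 to 1 called higher, 28 to 38 at an adjusted p below 0.05 and a median of -0.958 to -0.716. For the ratios it gave 0.512 to 1.69 for the Psmb8 to Psmb5 ratio and 0.834 to 2.12 for the Psmb9 to Psmb6 ratio, both lowest without S2, and -0.828 to -0.316 for the Psmb10 to Psmb7 ratio. Over all genes the split of calls was 1416 lower and 1063 higher, and it was 1660 and 626 with the loess correction and 4 and 20 with the spike-ins. With DESeq2 it was 1721 and 1587, with 1 library left out 700 to 1913 and 445 to 1699, with S1 and S2 left out 709 and 810, and with glmTreat 185 and 92. In absolute terms 7 of the 47 members were negative under the spike-ins, beside 41 under TMM. Relative to all genes, and with libraries left out, the members that changed sign were near 0. Psmb8 (0.04) was at -0.077 and Psme3 (0.01) at -0.0046 relative to all genes under the spike-ins, and at -0.074 and -0.077 without S1 and S2. With 1 library left out Psmb8 ranged from -0.260 to 0.349, Psmb9 from -0.309 to 0.527 and Psme3 from -0.0604 to 0.0743. The cause was not tested. Psma6 lost its call with DESeq2, limma-voom, no count filter, no spike-in rows and the scalings by size factors, upper quartile and library totals (-0.58 to -0.49). Psma3, Psma4 and Psmd5 lost theirs with library totals, Psmb10 with limma-voom, and Psma4 and Psmg3 with the loess correction, under which Psmd11 (-0.85) and Psmc6 (-0.62) gained one. Psme2 gained one with the stricter filter, limma-voom and the likelihood ratio test.

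No paired analysis was possible because neither the labels nor the columns say which libraries of both groups came from the same rat. Psmb8 and Psmb9 had 6 to 139 reads a library, the fewest in S2. That library had 38506289 total counts, of which 9.80% were spike-ins, and the part of depth in the spread of both genes was not tested. The gain of Psmd10 rests on leaving out S2.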
